A study of Arabidopsis thaliana with 12 samples.

Results

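The probe sets described here rose at least 2-fold on dehydration in wild-type Arabidopsis thaliana (accession Col-0) and not in the mutant siz1-3. They were chosen by 3 limits on group means of 3 arrays: a log2 difference between dehydrated and control plants of at least 1 in Col-0, one of at most 0.25 in siz1-3, and a mean signal of at least 100 in dehydrated Col-0. Log2 values are of the deposited signal plus 16, so differences of dim probe sets are understated. Of 22746 probe sets, 64 met the limits. The 4 among them for DFR, UF3GT, AT4G14090 and TBL26, which the rule excludes by name, were left out. That leaves 60 members. Exactly 1 gene is paired with 27 of them in the annotation used, several genes with 2, and 31 are not listed there. The 27 carry 8 gene symbols other than a locus code and 19 locus codes. All 12 arrays entered the choice, so the dehydration responses of the members and the gap between genotypes are given as a description, with no test.

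The study measured transcripts on ATH1 GeneChip arrays in 4 groups of 3: siz1-3 after 2 h of dehydration, siz1-3 controls, Col-0 after 2 h of dehydration, and Col-0 controls. The labels give an age of 3 weeks, or 21 days for 1 Col-0 control array. The siz1-3 plants carry a mutant allele of SIZ1 and no other allele is named, and the labels name no tissue. Whether replicates came from separate plantings is not stated, so p-values cover the spread among these arrays alone, which may be technical, and 3 arrays a group limit the precision of each comparison.

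SIZ1 encodes a SUMO E3 ligase, which attaches the small protein SUMO to target proteins, many of them in the nucleus. Water loss raises abscisic acid, and transcription factors that respond to this hormone or to the water deficit itself then raise transcripts for protective proteins, metabolic enzymes and transporters. The rise of sumoylated proteins under stress depends largely on SIZ1, and SIZ1 also restrains salicylic acid signalling in unstressed plants.

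The brighter SIZ1 probe set read 81.5, 101.0 and 101.4 in dehydrated siz1-3 and 160.1, 172 and 177 in siz1-3 controls, against 392.1, 465 and 360 in dehydrated Col-0 and 450.5, 428 and 286 in Col-0 controls. All siz1-3 arrays lay below all Col-0 arrays there. The dimmer SIZ1 probe set lay the other way, from 60.3 to 110.6 over the siz1-3 arrays and from 2.85 to 34.1 over the Col-0 arrays. How either lies relative to the mutation was not examined. Over all probe sets, replicate arrays correlated at 0.98 to 0.991. The signal ratio of 3' to 5' actin control probe sets ran from 8.29 to 20.2 over the 12 arrays. That of the GAPDH control probe sets ran from 1.08 to 1.74. The part of either ratio in the results was not tested.

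Induction without a counterpart in siz1-3 was uncommon. Of 1267 probe sets that rose at least 2-fold in Col-0 to a signal of 100 or more, 996 also rose at least 2-fold in siz1-3, 207 lay between the limits, 4 were excluded by name, and the 60 members make up 4.74%. The limits applied the other way round, with the genotypes exchanged, gave 93 probe sets induced in siz1-3 alone. The members' response in Col-0 was moderate, with a lowest log2 difference of 1.02, a median of 1.27 and a highest of 2.62. Only 9 of the 60 rose at least 3-fold and 3 at least 5-fold. In siz1-3 their responses ran from -1.56 to 0.25 with a median of -0.05, against a median of -0.16 over all probe sets. Of the 60, 37 had a siz1-3 value at or below 0 and 13 one at or below -0.5.

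On single arrays the median signal of the 60 members was 192, 185 and 181 in dehydrated siz1-3 and 235, 214 and 195 in siz1-3 controls, against 484, 471 and 486 in dehydrated Col-0 and 176, 182 and 194 in Col-0 controls. The limits favour high values in dehydrated Col-0, so these levels are a description. For 55 of the 60, the highest of the 12 arrays was one of dehydrated Col-0. The limits favour this too, and no share over all probe sets is given for it. Arrays of dehydrated and control Col-0 did not overlap for any of the 60, where 17.0% of all probe sets were higher in this way; the choice of members forces this and nothing is read from it. After dehydration siz1-3 lay below Col-0 in 55 members, by at least 2-fold in 41 and at least 4-fold in 10, and above it in 5. The dehydrated arrays did not overlap in 55 members with siz1-3 lower and 4 with siz1-3 higher, against 27.9% and 16.9% of all probe sets. The limits push dehydrated siz1-3 below dehydrated Col-0, so nothing is read from these counts either. In 28 members the dehydrated siz1-3 mean was at or below that of Col-0 controls.

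**Figure D1:**
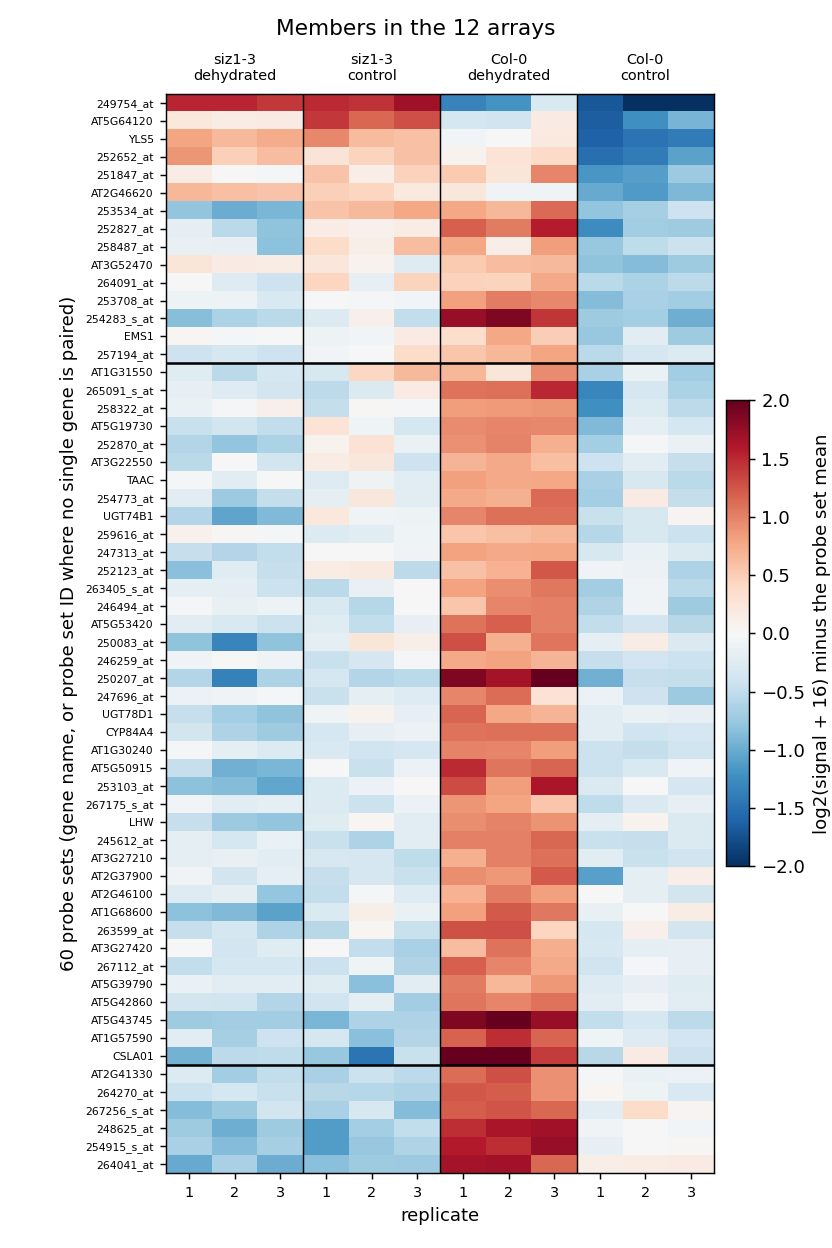
Log2 signal (plus 16) of the 60 members in each of the 12 arrays, minus the mean of that probe set, with siz1-3 on the left, Col-0 on the right, and replicates as columns. Lines across separate 15 members called higher in siz1-3 controls than in Col-0 controls, 39 not called and 6 called lower. For 55 of the 60 the highest array is one of dehydrated Col-0, which the limits favour.

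**Figure D2:**
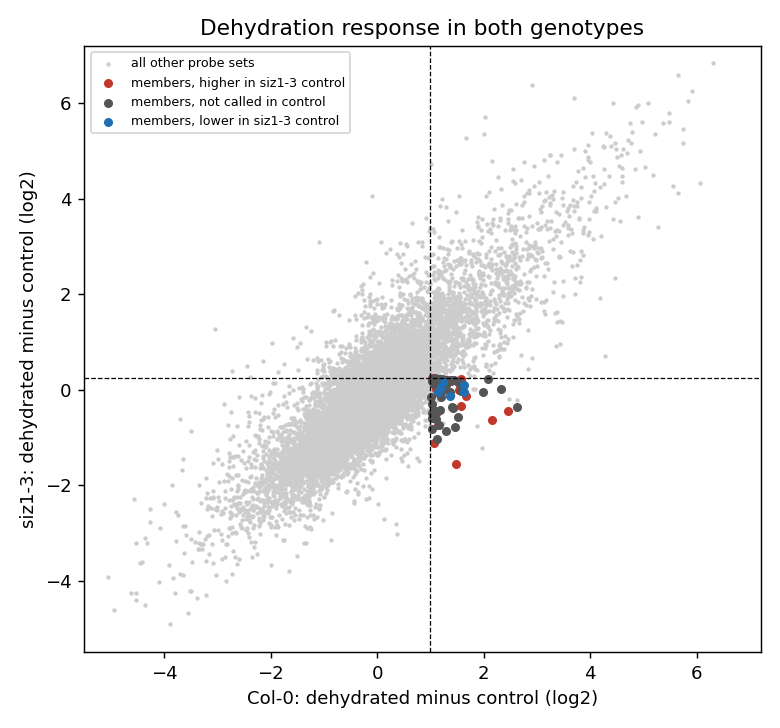
Dehydrated minus control (log2) in siz1-3 on the vertical axis and in Col-0 on the horizontal axis, 1 point per probe set, with members in colour by their call in control plants and dashed lines at the limits of 1 and 0.25. Members fill the lower right corner by construction, from 1.02 to 2.62 in Col-0 and from -1.56 to 0.25 in siz1-3. Grey points there were excluded by name or did not reach the signal limit of 100 in dehydrated Col-0.

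Glycosyltransferase or cytochrome P450 genes of specialised metabolism were among the members with a symbol. UGT78D1 read 147, 124 and 112 in dehydrated siz1-3 and 199, 221 and 184 in siz1-3 controls, against 487, 367 and 346 in dehydrated Col-0 and 178, 190.0 and 184 in Col-0 controls. UGT78D1 encodes a flavonol 3-O-rhamnosyltransferase, which attaches rhamnose to flavonols. The log2 difference between dehydrated and control plants was -0.60 in siz1-3 and 1.04 in Col-0: the dehydrated siz1-3 arrays lay below all others and the dehydrated Col-0 arrays above all others. UGT74B1 read 617, 442 and 499 in dehydrated siz1-3 and 1086, 892 and 870.4 in siz1-3 controls, against 1850, 2024 and 2023 in dehydrated Col-0 and 678, 742 and 967 in Col-0 controls. UGT74B1 encodes the glucosyltransferase that builds the thioglucose of glucosinolates, the sulphur-containing defence compounds of this plant family. Dehydration changed its log2 mean by -0.86 in siz1-3 and 1.30 in Col-0, and the pattern over arrays was that of UGT78D1. CYP84A4 read 44.8, 35.3 and 32 in dehydrated siz1-3 and 45.6, 54.3 and 56.5 in siz1-3 controls, against 151, 152 and 152 in dehydrated Col-0 and 52.1, 44 and 46 in Col-0 controls. CYP84A4 belongs to the cytochrome P450 family that also holds ferulate 5-hydroxylase, and acts in the synthesis of arabidopyrones, a group of phenylalanine-derived pyrones. Its log2 difference on dehydration was -0.36 in siz1-3 and 1.41 in Col-0, and the siz1-3 arrays of one condition again did not overlap those of the other. The siz1-3 difference of CYP84A4 was -0.02 once arrays were quantile-normalized and -0.01 with array medians subtracted. Under the same settings it was -0.36 and -0.26 for UGT78D1, and -0.92 and -0.51 for UGT74B1.

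In a list of 23 flavonoid and anthocyanin loci, 8 could be matched to a probe set through the annotation, and UGT78D1 was the 1 member among them. The 33 members without a single gene could not be matched to any list. The rule left out DFR, which encodes dihydroflavonol 4-reductase, and the glycosyltransferase gene UF3GT. DFR and UF3GT met the same limits, with log2 differences of -0.19 in siz1-3 and 2.49 in Col-0 for DFR and of -0.22 in siz1-3 and 2.63 in Col-0 for UF3GT. AT4G14090, also excluded by name, read 12.1, 22.2 and 4.33 in dehydrated siz1-3 and 59.0, 48.4 and 40.5 in siz1-3 controls, against 158, 143 and 218.5 in dehydrated Col-0 and 5.15, 89.9 and 31.4 in Col-0 controls. Its log2 differences were -1.21 in siz1-3 and 1.98 in Col-0. AT4G14090 met the limits too, so these differences are given as a description. UGT78D2, a flavonoid 3-O-glucosyltransferase gene that the rule also names, did not reach the limit in Col-0. It read 57.4, 81.3 and 94.7 in dehydrated siz1-3 and 160.1, 150.4 and 164 in siz1-3 controls, against 242 to 260.0 in dehydrated Col-0 and 124, 144 and 155 in Col-0 controls. It fell in siz1-3 by 0.91 (± 0.15 SE, limma adjusted p = 0.000198) and rose in Col-0 by 0.77 (± 0.15, adjusted p = 0.00101). CHIL, which encodes a chalcone isomerase-like protein that aids flavonoid synthesis, had 25.2, 37.1 and 30.2 in dehydrated siz1-3 and 54.5, 51.6 and 22.4 in siz1-3 controls, against 114, 160.1 and 173 in dehydrated Col-0 and 71.3, 74.3 and 79.5 in Col-0 controls. It rose in Col-0 (0.84 ± 0.22, limma adjusted p = 0.0086) and did not pass in siz1-3 (-0.28 ± 0.22, adjusted p = 0.329). The acyltransferase gene AT5MAT and the proanthocyanidin gene BAN stayed dim, at group means of at most 58.9 and 12.1, and passed in neither genotype. Over the 7 matched loci of the list that are not members, 0 were called higher and 2 lower (UGT78D2 and AT4G14090) in siz1-3, where 15.3% and 31.8% of all probe sets were called, with a median of -0.28. In Col-0 5 were called higher and 0 lower, where 13.5% and 23.5% of all were called, with a median of 0.84. The AT4G14090 call in siz1-3 was lost under 9 of 20 alternatives. DFR, UF3GT and AT4G14090 met the limits, so their rise in Col-0 and their lack of one in siz1-3 follow from the rule. UGT78D2 was named in the rule with earlier results known, and nothing is read from these counts.

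CSLA01 and AT5G64120 encode enzymes known from cell wall polysaccharides and from the wall space. CSLA01 read 12.7, 22.6 and 23.1 in dehydrated siz1-3 and 16.8, 4.12 and 24.9 in siz1-3 controls, against 204, 214 and 131 in dehydrated Col-0 and 21.9, 46.4 and 25.3 in Col-0 controls. CSLA01 belongs to the cellulose synthase-like A family, whose enzymes make mannan backbones of wall polysaccharides. The response to dehydration on the log2 scale was 0.23 in siz1-3 and 2.08 in Col-0, a 4.23-fold rise in Col-0 that was the second largest among the 27 members with a single gene. Its siz1-3 value lay just inside the limit of 0.25. It was outside the limit after quantile normalization (0.44), after subtraction of array medians (0.57) and with a pseudocount of 1 (0.58). With a floor of 32 it was 0.00, inside the limit. CSLA01 was chosen again without 9 of the 12 single arrays and without 1 of the 3 replicate numbers. Signals in both siz1-3 groups and in Col-0 controls were comparable to the 16 added before the log. The rise in Col-0 is therefore understated, and the siz1-3 value depends on how dim signals are treated. AT5G64120, which encodes the class III peroxidase PRX71, an enzyme secreted to the wall, read 319.6, 306 and 308 in dehydrated siz1-3 and 757, 628 and 694 in siz1-3 controls, against 212, 203 and 309 in dehydrated Col-0 and 76.8, 108 and 135 in Col-0 controls. Here siz1-3 controls were the highest of the 4 groups, and the dehydrated groups of both genotypes overlapped each other and lay between the control groups. Its log2 means differed by -1.11 in siz1-3 and 1.07 in Col-0.

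The regulatory genes with a symbol were LHW and EMS1. LHW read 119.5, 96.6 and 92.2 in dehydrated siz1-3 and 142, 176 and 145 in siz1-3 controls, against 340.4, 356 and 332 in dehydrated Col-0 and 147, 180.4 and 137 in Col-0 controls. LHW encodes a bHLH transcription factor required for cell divisions in vascular tissue. Between conditions the log2 means differed by -0.52 in siz1-3 and 1.08 in Col-0. The control groups of the genotypes overlapped and the dehydrated groups lay on either side of them. The siz1-3 difference of LHW was -0.24 after quantile normalization and -0.18 with array medians subtracted. EMS1 read 74.5, 71 and 72.7 in dehydrated siz1-3 and 66.4, 68.4 and 83 in siz1-3 controls, against 96.8, 134 and 108 in dehydrated Col-0 and 35.9, 60.4 and 38.1 in Col-0 controls. EMS1 encodes a receptor kinase known for specifying the tapetum in anthers. Its response (log2) was 0.01 in siz1-3 and 1.10 in Col-0, and the dehydrated siz1-3 arrays lay within the range of the siz1-3 controls. TAAC and YLS5 act in other processes. TAAC read 339.7, 298 and 345 in dehydrated siz1-3 and 289.6, 321 and 299.5 in siz1-3 controls, against 624, 600.4 and 604 in dehydrated Col-0 and 216, 274 and 233 in Col-0 controls. TAAC encodes a carrier that exchanges ATP and ADP across the thylakoid membrane. On the log2 scale dehydration changed it by 0.10 in siz1-3 and 1.29 in Col-0. The siz1-3 value of TAAC was 0.18 after quantile normalization and 0.45 with array medians subtracted. YLS5 read 1496, 1350 and 1437 in dehydrated siz1-3 and 1680, 1341 and 1294 in siz1-3 controls, against 822, 853 and 984.9 in dehydrated Col-0 and 268, 297 and 317 in Col-0 controls. YLS5, named for expression in yellowing leaves, encodes a protein of the DJ-1 family. Dehydrated minus control (log2) was 0.00 in siz1-3 and 1.54 in Col-0. The siz1-3 value of YLS5 was -0.14 after quantile normalization and 0.34 with array medians subtracted. All siz1-3 arrays of YLS5, control and dehydrated, lay above all arrays of dehydrated Col-0.

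**Figure D3:**
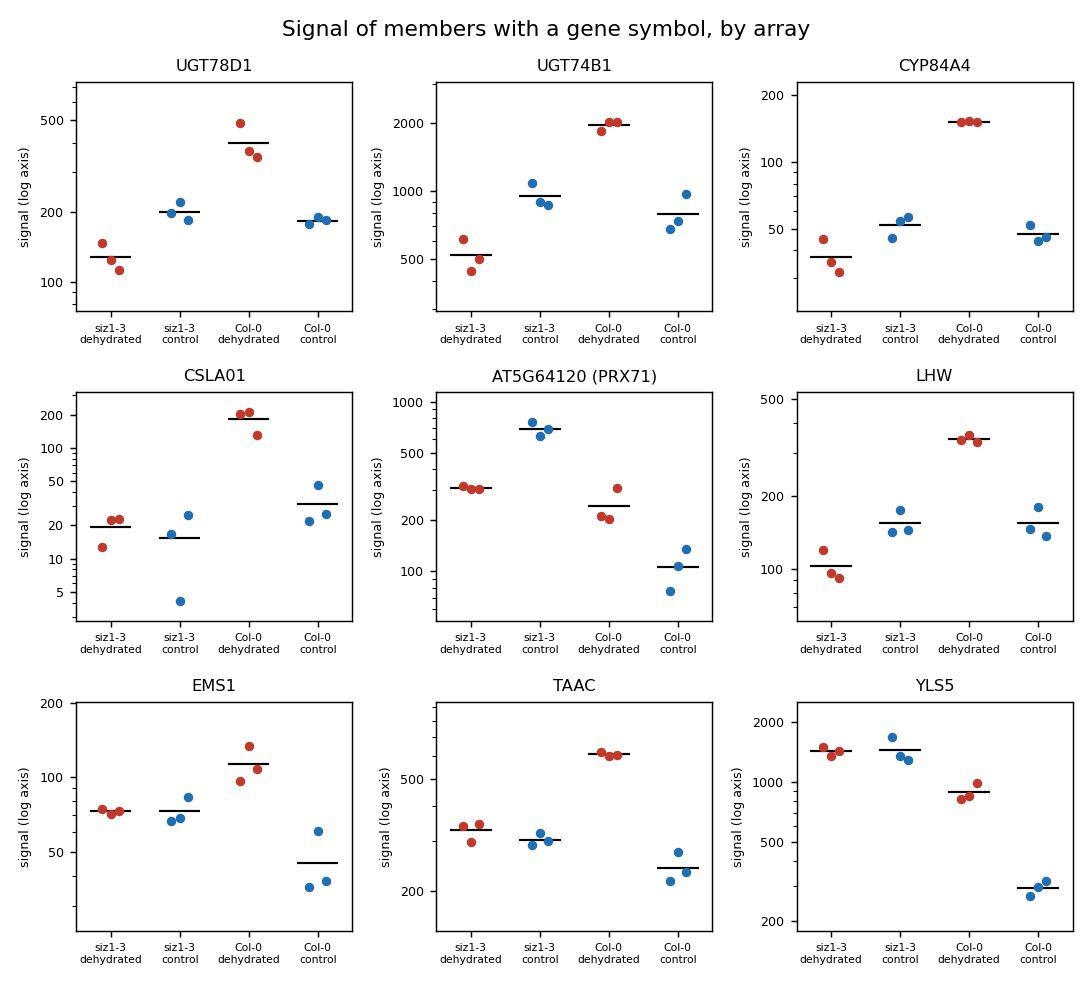
Signal (log axis) of the 8 members with a gene symbol and of AT5G64120 in dehydrated siz1-3, siz1-3 control, dehydrated Col-0 and Col-0 control arrays; points are arrays (red dehydrated, blue control) and bars are means of 3. In most panels dehydrated Col-0 is the highest group; the exceptions are AT5G64120 and YLS5, where both siz1-3 groups have higher means than dehydrated Col-0.

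The other members with a single gene carry locus codes only. AT5G43745 had the largest response among the 27. AT5G43745 read 83.1, 83.5 and 83.9 in dehydrated siz1-3 and 69.9, 89.1 and 89.7 in siz1-3 controls, against 572, 636 and 525 in dehydrated Col-0 and 98.8, 111 and 96.9 in Col-0 controls. The log2 difference was 0.01 in siz1-3 and 2.33 in Col-0, where it makes 5.02-fold, and its siz1-3 arrays all lay below those of Col-0 controls. AT5G50915 read 74.8, 48.9 and 50.6 in dehydrated siz1-3 and 108, 75.9 and 99.3 in siz1-3 controls, against 337, 248 and 266 in dehydrated Col-0 and 77, 85.6 and 104 in Col-0 controls. The log2 differences of AT5G50915 were -0.58 in siz1-3 and 1.51 in Col-0, and siz1-3 arrays fell below their controls without overlap. Its siz1-3 difference was -0.24 both after quantile normalization and with array medians subtracted. AT1G68600 read 346, 329 and 285 in dehydrated siz1-3 and 502, 671 and 566 in siz1-3 controls, against 1109, 1472 and 1302 in dehydrated Col-0 and 557, 614 and 690.5 in Col-0 controls. For AT1G68600 the log2 differences were -0.82 in siz1-3 and 1.04 in Col-0, and the dehydrated groups lay on either side of the overlapping controls. The siz1-3 difference of AT1G68600 was -0.81 after quantile normalization and -0.48 with array medians subtracted. AT5G53420 read 448, 426 and 386 in dehydrated siz1-3 and 444, 370.4 and 471 in siz1-3 controls, against 1137, 1229 and 1084 in dehydrated Col-0 and 371, 403 and 356 in Col-0 controls. AT5G53420 was even in siz1-3, with -0.02 in siz1-3 and 1.57 in Col-0. AT2G46100 read 1107, 1152 and 772 in dehydrated siz1-3 and 942, 1292 and 1106 in siz1-3 controls, against 2151, 2706 and 2341 in dehydrated Col-0 and 1338, 1172 and 1024 in Col-0 controls. AT2G46100 was the brightest member with a single gene in dehydrated Col-0, and its log2 difference of 1.02 in Col-0 was the lowest of all 60. After quantile normalization this difference was 0.91, below the limit of 1. AT2G46100 was chosen again without 10 of the 12 single arrays and without 1 of the 3 replicate numbers.

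AT5G19730, AT1G31550, AT3G22550 and AT2G46100 had lower means in dehydrated than in control siz1-3, with log2 differences of -0.38, -0.62, -0.29 and -0.15. After subtraction of array medians AT3G22550 and AT2G46100 were at 0.06 and 0.20 instead, the first also above 0 after quantile normalization (0.08). AT5G19730 was at -0.01 once arrays were quantile-normalized and -0.03 with array medians subtracted. The values near 0 of AT5G53420 and AT5G42860 changed sign with the scaling as well. On the deposited scale, the remaining locus-code members had siz1-3 differences from -0.02 for AT5G42860 to 0.25 for AT5G39790. They rose in Col-0 by log2 differences of 1.03 for AT2G46620 to 1.51 for AT1G57590. Their siz1-3 differences ran from 0.32 for AT5G42860 to 0.59 for AT5G39790 with array medians subtracted. After quantile normalization they ran from 0.07 for AT3G52470 to 0.53 for AT1G30240. AT1G30240, AT3G27210 and AT3G27420 were named after their values were seen. Of the group, AT1G30240, AT3G27210, AT5G39790 and AT2G46620 were higher in every dehydrated than in every control array of siz1-3, by 0.19 to 0.25. Such a separation, with dehydrated siz1-3 higher, held for 7 of the 60 members, against 18.5% of all probe sets, and with dehydrated siz1-3 lower for 19, against 37.3%.

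At the limits, the members nearest inside the Col-0 limit were AT2G46100 at 1.018, probe set 247313_at at 1.031 and AT2G46620 at 1.034, and those nearest outside were 247604_at at 0.992, 255038_at at 0.989 and 267423_at at 0.989. Nearest to the siz1-3 limit were AT5G39790 at 0.246, AT2G46620 at 0.239 and CSLA01 at 0.228 inside, and AT2G45720 at 0.254, 257030_at at 0.272 and 251895_at at 0.273 outside. AT5G39790 and AT2G46620 were each chosen again without 7 of the 12 single arrays and without 1 of the 3 replicate numbers. For AT3G27420 these counts were 8 and 1, and for AT2G37900 they were 10 and 1. The dimmest members in dehydrated Col-0 were AT2G37900 at 100.1, AT3G22550 at 101.8 and EMS1 at 113, and AT4G11210 at 95.7, 250533_at at 92.6 and 248918_at at 90.5 fell just short.

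Control plants of the genotypes were then compared to ask from which level the members started, a contrast that the limits do not use although they use the same arrays. Under control conditions 15 of the 60 members were higher in siz1-3 and 6 lower (limma, adjusted p below 0.05 over all probe sets), and 39 did not pass. Control arrays did not overlap in 19 members with siz1-3 higher and 7 with siz1-3 lower, against 15.1% and 17.2% of all probe sets. Over all probe sets 8.90% were called higher and 8.49% lower, or 17.4% in either direction. The members' 25% higher and 10% lower also stand beside 20.9% and 18.6% among the other 1203 probe sets induced at least 2-fold in Col-0 to a signal of at least 100, and no test was made of these shares. The median log2 difference was 0.17 over the members, against -0.04 over the other induced probe sets and -0.03 over all. A chance low value in Col-0 controls or a chance high value in siz1-3 controls favours membership, which leans this contrast toward higher values in siz1-3. In the arrays of a replicate number left out of the choice, the median over the members then chosen was 0.22, 0.05 and 0.06, against 0.14, 0.20 and 0.12 in the arrays used for it. Leaving out Col-0 control replicate 2 or siz1-3 control replicate 3 lowered the count of members called lower to 3.

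Of the 15 members higher in siz1-3 controls, 5 have a single gene. AT5G64120 (PRX71) averaged 693 ± 64.5 in siz1-3 controls and 107 ± 29.2 in Col-0 controls (SD, n = 3 each), a log2 difference of 2.56 ± 0.19 (SE, limma adjusted p = 1.17e-06). YLS5 averaged 1438 ± 211 in siz1-3 and 294 ± 24.6 in Col-0, a difference of 2.22 ± 0.13 (SE, limma adjusted p = 2.03e-07). For AT2G46620 the means were 547 ± 59.0 in siz1-3 and 200.5 ± 17.5 in Col-0, a difference of 1.38 ± 0.13 (SE, limma adjusted p = 7.84e-06). In these 3 members, and in 2 without a single gene, siz1-3 controls were at or above the mean that Col-0 reached after dehydration, and these same 5 were the members above Col-0 after dehydration. AT3G52470 averaged 1009 ± 173 in siz1-3 controls and 565 ± 34.2 in Col-0 controls (0.81 ± 0.13 SE, limma adjusted p = 0.000765), below the mean of 1507 of dehydrated Col-0. EMS1 averaged 72.6 ± 9.07 in siz1-3 controls and 44.8 ± 13.5 in Col-0 controls (0.56 ± 0.16 SE, limma adjusted p = 0.0293). The EMS1 call was lost when Col-0 control replicate 1 or 3, or siz1-3 control replicate 2 or 3, was left out, and with only the control arrays in the fit (adjusted p from 0.00496 to 0.113 over the alternatives). For each of these 5 genes all control arrays of siz1-3 lay above all control arrays of Col-0.

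The 1 member with a single gene that was lower in siz1-3 controls was AT2G41330, at 33.9, 42.4 and 38.7 in siz1-3 controls, against 61, 55.3 and 56.2 in Col-0 controls, a log2 difference of -0.44 ± 0.14 (SE, limma adjusted p = 0.0455). Its arrays did not overlap, but its call was lost under 10 of 20 alternatives, among them the fits without any one of the control arrays, Col-0 drought replicate 1 and siz1-3 drought replicate 3 (adjusted p from 0.0194 to 0.139). It read 49, 32.4 and 39.7 in dehydrated siz1-3, against 154, 176 and 132 in dehydrated Col-0. CSLA01 had the most negative value of the 27 but a wide error, -0.62 ± 0.27 (SE, limma adjusted p = 0.157), and did not pass. LHW (0.00 ± 0.13 SE, limma adjusted p = 0.995), UGT78D1 (0.12 ± 0.14 SE, limma adjusted p = 0.66), CYP84A4 (0.10 ± 0.12 SE, limma adjusted p = 0.644) and UGT74B1 (0.26 ± 0.16 SE, limma adjusted p = 0.326) did not pass either, and their control groups overlapped. AT1G31550 had 0.73 ± 0.25 (SE, limma adjusted p = 0.0648) and was called without Col-0 control replicate 2 or siz1-3 control replicate 1, with only the upper 60% of probe sets, and with a mean trend in the variance (adjusted p from 0.0103 to 0.225 over the alternatives). TAAC, at 0.32 ± 0.11 (SE, limma adjusted p = 0.0814), was called under 3 alternatives, which left out Col-0 control replicate 2, kept the upper 60% of probe sets, or set a floor of 32 (0.0347 to 0.246), and AT3G22550, at 0.35 ± 0.18 (SE, limma adjusted p = 0.224), without siz1-3 control replicate 3 (0.0369 to 0.502).

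**Figure D4:**
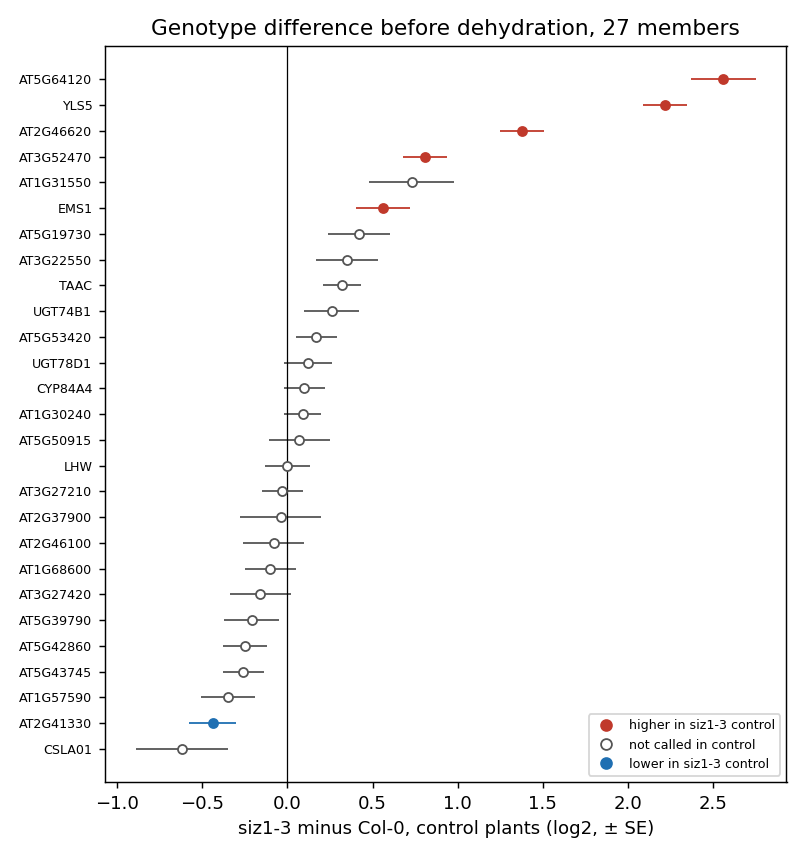
Log2 difference between siz1-3 and Col-0 control plants for the 27 members with a single gene, with its standard error in the limma fit as bars. Filled red points were called higher in siz1-3 (5 genes), the filled blue point lower (AT2G41330), and the 21 open points did not pass; values run from -0.62 for CSLA01 to 2.56 for AT5G64120.

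The 33 members without a single gene are known here by probe set only, and those named in this paragraph were chosen after their values were seen. Probe set 253534_at was the brightest member in dehydrated Col-0. It read 1647, 1417 and 1495 in dehydrated siz1-3 and 4215, 4461 and 4888 in siz1-3 controls, against 4877, 4492 and 6276 in dehydrated Col-0 and 1645, 1783 and 2142 in Col-0 controls. The log2 difference was -1.56 in siz1-3 and 1.48 in Col-0, and the control genotypes differed by 1.28 ± 0.15 (SE, limma adjusted p = 5.28e-05). Probe set 250207_at read 81.2, 41 and 78 in dehydrated siz1-3 and 97.8, 80.8 and 84.2 in siz1-3 controls, against 514, 443 and 766 in dehydrated Col-0 and 58.6, 89.9 and 88.1 in Col-0 controls. It had the largest Col-0 response of all members, with log2 differences of -0.36 in siz1-3 and 2.62 in Col-0, from control levels that overlapped between the genotypes. Probe set 249754_at read 2729, 2705 and 2515 in dehydrated siz1-3 and 2660, 2567 and 3073 in siz1-3 controls, against 362, 398 and 752 in dehydrated Col-0 and 279, 154 and 208 in Col-0 controls. In siz1-3 it was level across conditions (-0.06 in siz1-3 and 1.14 in Col-0) and its control difference of 3.63 ± 0.25 (SE, limma adjusted p = 7.1e-07) was the largest of all members. Probe set 252652_at was likewise higher in siz1-3 controls, by 1.76 ± 0.15 (SE, limma adjusted p = 5.68e-06).

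Among the 6 members lower in siz1-3 controls, 5 have no single gene. Probe set 264041_at read 59.6, 81.4 and 60.6 in dehydrated siz1-3 and 69.2, 76.9 and 76.5 in siz1-3 controls, against 467, 474 and 322 in dehydrated Col-0 and 149, 154 and 154 in Col-0 controls. Its control difference of -0.90 ± 0.15 (SE, limma adjusted p = 0.00121) was the most negative of the members, and the siz1-3 arrays of both conditions lay below all Col-0 arrays. Probe sets 254915_s_at and 248625_at had control differences of -0.78 ± 0.14 (SE, limma adjusted p = 0.00197) and -0.72 ± 0.15 (SE, limma adjusted p = 0.00549), and differed after dehydration by -2.32 and -2.40. Over the 6, the median of the group means was 123 in dehydrated siz1-3 and 120 in siz1-3 controls, against 500 in dehydrated Col-0 and 209 in Col-0 controls. Over the 15 members higher in siz1-3 controls it was 646 in dehydrated siz1-3 and 693 in siz1-3 controls, against 548 in dehydrated Col-0 and 200 in Col-0 controls. Over the 39 not called it was 128 in dehydrated siz1-3 and 154 in siz1-3 controls, against 400 in dehydrated Col-0 and 155 in Col-0 controls. These groups were formed by the control contrast itself, so their levels are a description.

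Membership was checked by repeating the choice with replicate 1, 2 or 3 of every group left out, which gave 55, 68 and 64 probe sets, of which 44, 52 and 47 are among the 60. In the left-out arrays the Col-0 difference was above 0 for all 55, 68 and 64, with medians of 1.42, 1.08 and 1.19. It reached the limit of 1 for 43, 40 and 43 of them. The siz1-3 difference in the left-out arrays had medians of 0.04, -0.10 and -0.05, and Col-0 exceeded siz1-3 in 54, 67 and 62. Both limits were met again in 26, 33 and 36. In the left-out arrays the medians still differed between the genotypes, while the exact set of members changed. Each left-out response rests on 1 array per group, and probe sets are not replicates of a condition. No share over all probe sets is given for these counts. With all arrays, the siz1-3 response minus the Col-0 response had a median of -0.08 over all probe sets.

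The scaling of the arrays matters for the siz1-3 side. Array medians were lower after dehydration, and subtracting them moves the median log2 difference of all probe sets by 0.34 in siz1-3 and by 0.22 in Col-0; quantile normalization moves it by 0.13 in siz1-3 and 0.08 in Col-0. After subtraction the 60 members had median log2 differences of 0.30 in siz1-3 and 1.48 in Col-0, and 28 of them stayed at or below 0.25 in siz1-3. After quantile normalization the medians were 0.03 in siz1-3 and 1.36 in Col-0, and 42 stayed at or below 0.25. A siz1-3 value below 0 held for 37 members on the deposited scale, 28 after quantile normalization and 23 after subtraction. The siz1-3 difference stayed below that of Col-0 by at least 0.67 in each of the 60 under these settings.

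Beyond the flavonoid list, 15 lists of hormone, stress, metabolic and tissue marker genes held 194 loci. Of these, 30 loci in 11 lists could be matched to a probe set through the annotation, and 0 of the 27 members with a single gene were among them. Dehydration of siz1-3 gave 10 of the 30 called higher and 13 lower with a median of -0.16, where 15.3% and 31.8% of all probe sets were called. Dehydration of Col-0 gave 9 called higher and 9 lower with a median of 0.02, where 13.5% and 23.5% of all were called. Between control plants 3 were higher and 10 lower in siz1-3, where 8.90% and 8.49% of all were called. The summed signal of 3 matched of 7 leaf photosynthesis genes ran from 13000 to 14000 in dehydrated siz1-3 and from 21600 to 25400 in siz1-3 controls, against 17800 to 18900 in dehydrated Col-0 and 26000 to 27900 in Col-0 controls. That of 5 matched of 8 root genes ran from 495 to 553 in dehydrated siz1-3 and from 671 to 785 in siz1-3 controls, against 746 to 1160 in dehydrated Col-0 and 939 to 1020 in Col-0 controls. The root sum was mostly PYK10, with means of 477 in dehydrated siz1-3 and 662 in siz1-3 controls. EXPA7, EXPA18, GH9C1 and AT3G54580 had group means of at most 27.8. Guard cell and trichome genes, 3 matched of 7, summed to 57.6 to 74.5 in dehydrated siz1-3 and 135 to 192 in siz1-3 controls, against 87.1 to 138 in dehydrated Col-0 and 165 to 246 in Col-0 controls. The 3 matched were the stomatal genes FMA, MUTE and SPCH, so this sum does not cover trichomes. FMA made up most of it, with group means from 49.0 to 159, against at most 12.75 for MUTE and 43.4 for SPCH. Each of these sums was lower in dehydrated siz1-3 than in its controls, and their part in the members' responses was not tested. Fewer cells of a type and less RNA per cell cannot be told apart in such samples.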

How the data were processed

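Total RNA was extracted with TriZOL and biotin-labelled with a MessageAmp kit, per the labels' protocols. All values come from the series' deposited table, whose 12 columns were matched to samples by accession. The deposited values are a linear intensity per probe set, with 0 values at or below 0. Trimmed by 2% at either end, array means were 250.02 to 250.03. No source used here names the software that summarised probes, and no detection calls were used. The 64 control probe sets were left out, which leaves 22746. Names came from the platform annotation, updated with RefSeq genes (assembly TAIR10.1). By this, 13513 probe sets pair with 1 gene, 503 with several and 8730 are not listed.

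Log2 of the value plus 16 was fitted with limma 3.58.1 in R 4.3.3, with 1 mean per group over all 12 arrays (8 residual and 4.14 prior degrees of freedom) and no further normalization. Adjusted p-values are Benjamini-Hochberg over all 22746 probe sets, and a call is one under 0.05. On simulated data for siz1-3 against Col-0 controls, over 22746 probe sets, the fit called 86 of 100 changed by 1 on the log2 scale and 100 of 100 changed by 2. It also called 8 of 22546 left unchanged. The changed probe sets were drawn only from those with a mean above the median, and the noise was normal. These figures therefore do not cover dim members. The members, gene lists and tests were chosen with earlier results of these data known. The rule for named genes takes members with a single gene: the 15 with the largest gap between genotypes, the 8 brightest, list members, the 6 most different in each direction in controls, those nearest the limits, and neighbouring loci. List members that are not members of the module are named for the flavonoid list only. The main fit did not pair samples by replicate number. Same-numbered arrays of different groups had correlations of deviations from -0.044 to 0.132, and different-numbered arrays from -0.111 to 0.089. Such weak correlations cannot show whether samples with the same number were handled together. Alternatives were other scalings, pseudocounts, limits and filters, and leaving out each array.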

Additional observations from a re-analysis of the deposited data

Results flagged for a closer look

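UGT78D2, a flavonoid 3-O-glucosyltransferase gene outside the 60 members, responded differently in the 2 genotypes by the interaction term of the fit: the siz1-3 response minus the Col-0 response was -1.68 ± 0.21 (SE, limma adjusted p = 0.00048), with all dehydrated siz1-3 arrays below and all dehydrated Col-0 arrays above their controls. It was named in the rule with earlier results known. Over the alternatives its adjusted p ran from 2.38e-05 to 0.00329. CHIL, also of the flavonoid list, differed by -1.13 ± 0.31 (adjusted p = 0.0423). That call was lost under 14 of 19 alternatives, among them both rescalings and the fits without any one of 10 arrays (adjusted p from 0.00473 to 0.117). Members are not listed here, because the limits that chose them fix this difference.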

How the results depend on the processing

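The number of members was 60 with the limits used. It was 37 with a siz1-3 limit of 0, 102 with one of 0.5 and 16 with a Col-0 limit of 1.5. It was 49 after quantile normalization, 43 after subtraction of array medians, 67 with a pseudocount of 1, 81 with a floor of 32 and 80 with no minimum signal, of which 38, 28, 55, 58 and 60 are among the 60. Leaving out single arrays or 1 replicate number gave 54 to 68, and 33 members were kept without each of the 12 arrays in turn. The count of members higher in siz1-3 controls ran from 11 to 17 over all alternatives and that of members lower from 3 to 6, with 3 found without Col-0 control replicate 2 or siz1-3 control replicate 3. Over all probe sets 3955 were called in this contrast, and 3175 to 4461 over the alternatives. With replicate number as a block, 15 members were higher, 5 lower and 3741 probe sets called. Of the 27 members with a single gene, 22 had the same control call under every alternative, and no called difference changed sign. Differences of CSLA01 and other members dim in controls depend on the 16 added before the log.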

Other observations

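Of the 60 members, 36 had their lowest Col-0 control value in replicate 1, and for 17 that array was the lowest of all 12. No share over all probe sets is given for these counts, and the limits favour low values in Col-0 controls. Nothing is read from the counts. Replicate 1 is the array labelled 21 days where the others give 3 weeks, which is the same age. Without this array the limits chose 54 probe sets, 50 of them among the 60, and 11 members were called higher in siz1-3 controls.

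By the gene order of TAIR10.1, the 27 members with a single gene had 24 adjacent protein-coding genes matched to a probe set, and 0 of these was among the 27. The other 33 members have no position here. The closest pair of the 27, AT3G27210 and AT3G27420, stood 26 genes apart. The median Col-0 response of the 24 neighbours was 0.13, against -0.1 over all such neighbours, and 2 of them rose at least 2-fold in Col-0, chosen here after their values were seen: AT1G30250 next to AT1G30240, with log2 differences of 1.84 in siz1-3 and 3.07 in Col-0, and AT2G38870 next to YLS5, with 2.92 in siz1-3 and 1.36 in Col-0.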
